A study of Mus musculus with 12 samples.

Results

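The genes described here are 9 mouse genes of endoplasmic reticulum (ER)-associated degradation: Edem1, Man1b1, Dnajb9, Sel1l, Syvn1, Herpud1, Derl1, Derl2 and Vcp. Members were all probe sets carrying one of these symbols in the platform annotation, 19 of the 22626 probe sets tested, and none of the 19 carried several symbols. Derl1 and Sel1l had 4 probe sets each, Edem1, Derl2, Herpud1 and Vcp had 2 each, and Syvn1, Dnajb9 and Man1b1 had 1 each. Liver RNA came from 12 male mice aged 6 weeks, hybridised to 12 one-colour Affymetrix arrays. All mice carried a human alpha1-antitrypsin transgene with expression restricted to hepatocytes and silenced by doxycycline. M mice carried the wild-type protein and Z mice the mutant form, known to misfold in the ER. The off groups (M off and Z off) drank water with doxycycline at 40 µg/mL from conception, and the on groups (M on and Z on) received none, with 3 mice in each group, which the labels call biological replicates. Transgene expression and the absence of doxycycline therefore cannot be told apart, and neither can the form of the protein and the origin of the mice that carry it. The sources used here give neither the strain nor the number of founders.

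ER-associated degradation removes proteins that fail to fold in the ER. Mannosidases such as Man1b1 and Edem1 trim the glycans of such proteins, Sel1l passes them to the ubiquitin ligase Syvn1 (also called Hrd1) in the membrane, and the ATPase Vcp pulls the tagged protein into the cytosol for the proteasome. Several of these genes are induced by the unfolded protein response through the transcription factors XBP1 and ATF6, and mutant Z alpha1-antitrypsin is a classic substrate of the pathway. The comparisons of on with off mice asked how liver transcripts answer to the mutant or the wild-type protein.

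The promoters of 4 members are shown because XBP1 and ATF6 are known to act through short elements in this stretch, and because Syvn1, Dnajb9 and Vcp are the members on which the results below turn. Each runs from 250 bases before to 50 bases after the annotated start (RefSeq, build GRCm38.p6), 5′ to 3′ on the strand of the gene, with motif matches in capitals.
Syvn1 (chr19:6046326-6046625, plus strand): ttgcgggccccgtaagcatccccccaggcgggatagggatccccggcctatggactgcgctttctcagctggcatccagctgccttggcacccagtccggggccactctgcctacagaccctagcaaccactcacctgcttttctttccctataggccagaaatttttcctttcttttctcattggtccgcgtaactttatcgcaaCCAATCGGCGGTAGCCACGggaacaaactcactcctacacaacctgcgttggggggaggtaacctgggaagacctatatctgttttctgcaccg
Herpud1 (chr8:94386179-94386478, plus strand): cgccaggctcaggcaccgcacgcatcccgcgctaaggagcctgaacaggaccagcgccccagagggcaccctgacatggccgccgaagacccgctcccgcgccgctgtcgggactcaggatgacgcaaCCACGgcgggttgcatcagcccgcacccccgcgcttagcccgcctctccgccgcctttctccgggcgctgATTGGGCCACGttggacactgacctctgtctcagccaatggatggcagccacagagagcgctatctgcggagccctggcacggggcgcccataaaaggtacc
Dnajb9 (chr12:44210019-44210318, minus strand): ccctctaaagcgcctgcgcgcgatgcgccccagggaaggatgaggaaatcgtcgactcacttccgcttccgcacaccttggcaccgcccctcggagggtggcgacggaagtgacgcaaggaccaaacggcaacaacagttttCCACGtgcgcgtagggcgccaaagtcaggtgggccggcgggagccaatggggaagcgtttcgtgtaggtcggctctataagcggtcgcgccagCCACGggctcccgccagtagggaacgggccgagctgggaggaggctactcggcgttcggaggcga
Vcp (chr4:43000458-43000757, minus strand): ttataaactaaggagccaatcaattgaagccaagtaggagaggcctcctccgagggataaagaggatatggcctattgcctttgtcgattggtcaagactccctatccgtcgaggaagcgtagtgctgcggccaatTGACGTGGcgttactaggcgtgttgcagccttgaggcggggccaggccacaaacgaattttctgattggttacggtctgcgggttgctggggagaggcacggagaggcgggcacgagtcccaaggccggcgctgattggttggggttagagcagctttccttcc

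Both strands were searched for the ER stress element ERSE (CCAAT and CCACG joined by a fixed spacer), the related ERSE-II (ATTGG and CCACG joined by a single base), the core of the unfolded protein response element (TGACGTGG) and CCACG alone, which overlaps the other 3. The table of promoters held 9 promoters of 8 members and none for Derl1. The Syvn1 promoter held an exact ERSE, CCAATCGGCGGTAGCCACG, from 44 to 26 bases before the start, a match found in 39 of 32851 promoters (0.119%). The Herpud1 promoter held an exact ERSE-II, ATTGGGCCACG, from 52 to 42 bases before the start, found in 12 of 32851 (0.0365%). The TGACGTGG core was present in the Vcp promoter, from 114 to 107 bases before the start, as in 222 of 32851 (0.676%). CCACG was found for 7 members (Syvn1, Herpud1, Dnajb9, Vcp, Edem1, Sel1l and Derl2), against 32.8% of all promoters, with 2 matches each in the promoters of Dnajb9, Edem1 and Herpud1. These matches describe the letters of the windows and not binding.

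The median signal of an array ranged from 38.8 to 47.2, and 17 of the 19 probe sets lay above the median level of all probe sets. The exceptions were the dimmest Sel1l probe set and a Vcp probe set, both treated separately below. The liver label was borne out by its markers: albumin (Alb) averaged 19802 to 21459 and transthyretin (Ttr) 15154 to 19656 in the 4 groups, while the cholangiocyte genes Krt19 and Epcam averaged at most 36.0 and 19.5. Z on replicate 3 stood apart from the other Z on arrays in its clock genes. The signal of the clock output gene Dbp was 1365.0, 1385.3 and 80.1 in Z on, and 107.1, 51.1 and 23.8 in Z off, against 838.7 to 1555.9 in M mice. The Z on minus Z off differences of Syvn1, Dnajb9, Man1b1 and the dimmer Herpud1 probe set are given below with and without it.

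No member passed the test in any of the 4 comparisons between 2 groups (limma, adjusted p under 0.05 over all 22626 probe sets). Between Z on and Z off, 0 of 19 member probe sets were called, where 3 of 22626 (0.0133%) were called in all, and 2 of 19 had an unadjusted p under 0.05 against 6.29% of all probe sets. Both of these, Syvn1 and Dnajb9, read lower in Z on. Taken as a list, 14 of the 19 probe sets read lower in Z on and 5 higher, with a median log2 difference of -0.11, where 53% of all probe sets read lower and their median was -0.03. The 3 arrays of each group lay wholly apart on 3 members, all lower in Z on, as they did in this direction on 6.61% of all probe sets and in either direction on 11.8%. In bulk liver, fewer cells of a type and less RNA per cell cannot be told apart.

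**Figure D1:**
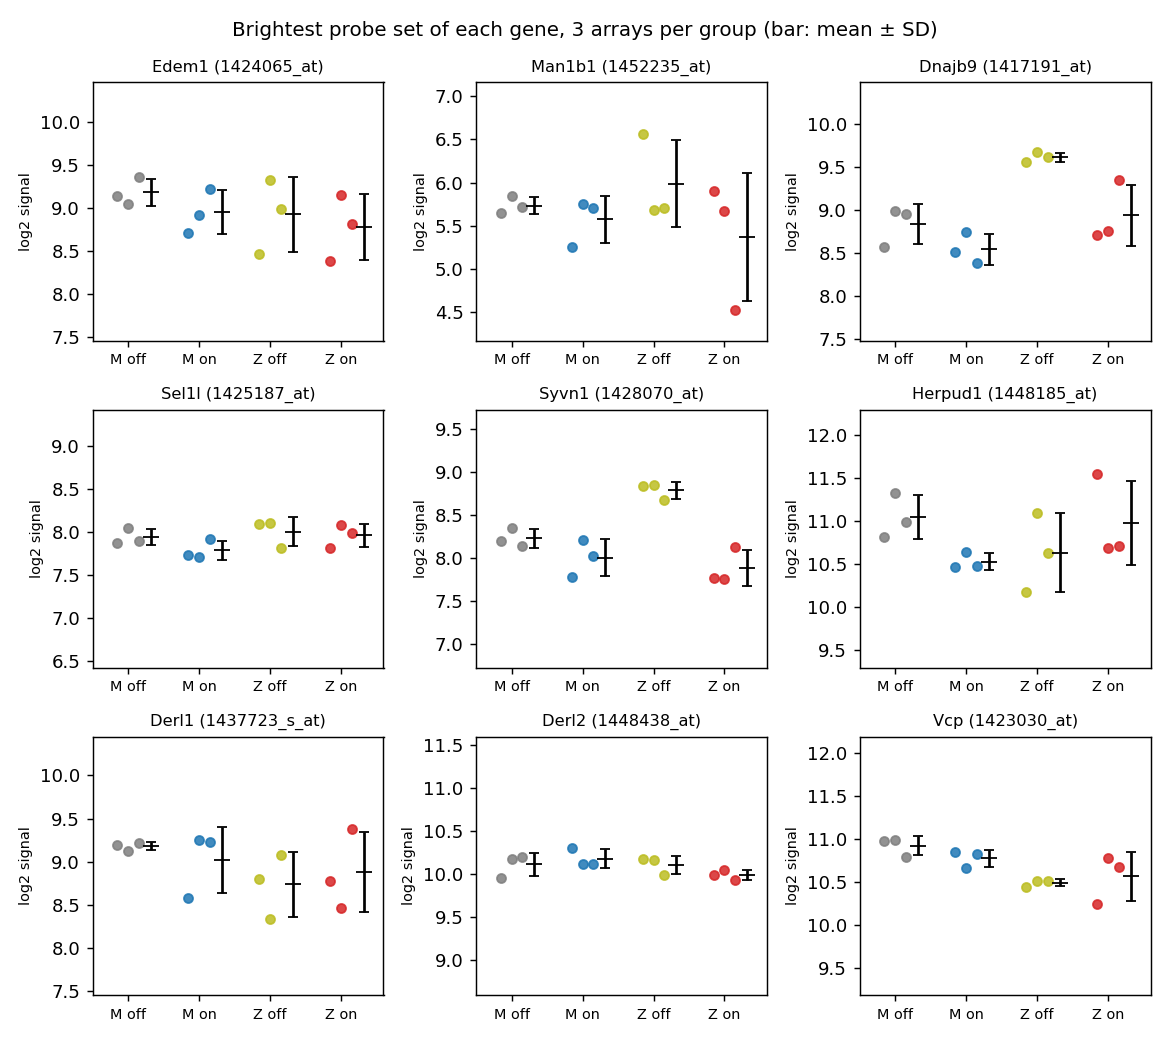
Log2 signal of the brightest probe set of each of the 9 genes on the 12 arrays, by group; points are arrays, the bar beside them is the mean ± SD (n = 3), and all panels span the same number of log2 units. The 3 Z off arrays lie above the other 9 for Dnajb9 and Syvn1, while the groups of Sel1l, Edem1, Herpud1 and Man1b1 overlap in Z on against Z off.

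Syvn1, the ubiquitin ligase at the core of the complex, had signals of 458.3, 461.4 and 407.0 in the Z off mice, and of 218.7, 216.9 and 279.8 in the Z on mice. The M off arrays read 292.6, 327.1 and 281.4, and the M on arrays 219.4, 295.1 and 260.8. All 3 Z off arrays thus lay above the other 9, while M on overlapped both M off and Z on. The order of the group means was Z off (442 ± 30.6), M off (300 ± 23.8), M on (258 ± 37.9) and Z on (238 ± 35.8; mean ± SD, n = 3 each), and only the first step in that order parted groups that did not overlap. Between Z on and Z off the log2 difference was -0.90 (SE 0.18, 95% interval -1.31 to -0.49), 1.86-fold higher in Z off. Among the members this was the smallest unadjusted p of that comparison, 0.00065, and the adjusted p was 0.443 in limma. Without Z on replicate 3 the difference was -1.02 (adjusted p = 0.231). Over 20 settings it ranged from -1.02 to -0.84, with adjusted p-values from 0.0871 to 0.742.

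Dnajb9 encodes ERdj4, a J-domain cochaperone of BiP in the ER lumen that promotes the disposal of misfolded proteins. Its signal in Z off was 754.4, 812.0 and 780.5, and in Z on it was 417.4, 431.4 and 648.0. The M off arrays read 380.6, 506.6 and 492.8, and the M on arrays 362.9, 426.6 and 334.1. As for Syvn1, the 3 Z off arrays lay above the other 9, and Z on replicate 3 was the next highest array. A pattern with all 3 Z off arrays above the other 9 was shared by 266 of 22626 probe sets (1.18%) and by 2 of the 19 members. The log2 difference between Z on and Z off was -0.68 (SE 0.22, 95% interval -1.16 to -0.19; adjusted p = 0.672 in limma), and without Z on replicate 3 it was -0.88 (adjusted p = 0.325).

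**Figure D2:**
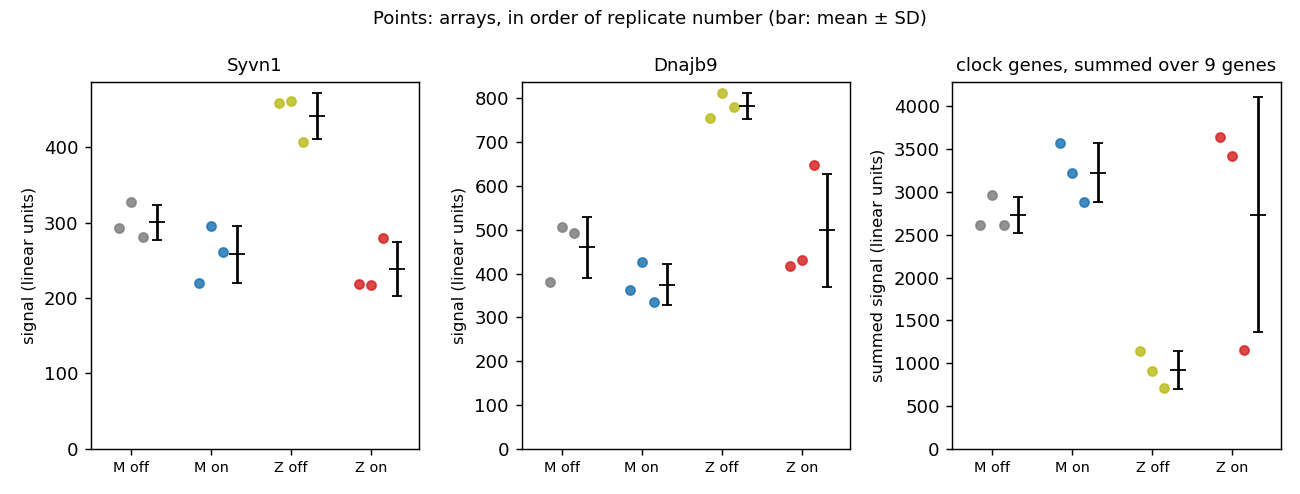
Linear signal of Syvn1 and Dnajb9 and the summed signal of 9 clock genes on the 12 arrays, by group, with axes from 0; points are arrays in order of replicate number and the bar is the mean ± SD (n = 3). Z off lies highest for both members (at least 407.0 and 754.4) and at or below 1141 for the clock genes, where Z on replicate 3 (1156) lies close to it.

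The summed clock signal, which was not tested, was low where these genes were high. Summed over 9 of 11 listed clock genes with a probe set, the signal was 706 to 1141 on the Z off arrays and 1156 on Z on replicate 3, and 2610 to 3637 on the other 8 arrays. Dbp, Nr1d2 and Tef carried most of the sum. Arntl (mean 130.1 in Z off, 13.3 to 37.9 elsewhere) and Npas2 (24.8 in Z off, at most 8.17 elsewhere) lay the other way, and Nr1d1 averaged 106 in Z off and 87.7 to 109.2 elsewhere. The 4 arrays lowest in clock signal were thus the 4 highest in Dnajb9, while for Syvn1 the array with the fourth highest signal was M off replicate 2. The erythroid sum was also highest in Z off, with a value over 3 of 5 listed genes of 1127 to 1524 against 171 to 336 on the other 9 arrays. Nearly all of it was Alas2 (mean 1278 in Z off and at most 274.3 in the other groups), while Hba-a1, the defining globin gene of that list, averaged 24.5 in Z on against 18.2 in Z off, while Ermap was lowest in Z off (15.8, against 18.4 to 35.8). The 3′ to 5′ ratio of beta-actin, a measure of RNA integrity, spanned 2.18 to 2.53 in Z off, 2.44 to 5.16 in Z on and 2.71 to 4.38 in M mice. Their part in the Syvn1 and Dnajb9 differences was not tested.

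The comparison of Z off with M off, in which both transgenes were silenced, placed the same pair of genes higher in Z mice. Of the 19 members none was called, against 16 of 22626 (0.0707%), and 4 of 19 had an unadjusted p under 0.05 against 7.73% of all probe sets. Mean Dnajb9 signal was 782 ± 28.8 in Z off against 460 ± 69.1 in M off, and the log2 difference was 0.78 (SE 0.22, adjusted p = 0.417 in limma). Syvn1 differed by 0.56 (SE 0.18, adjusted p = 0.528), and both Vcp probe sets were lower. This comparison and that of Z on with Z off share the Z off arrays, so the values of Syvn1 and Dnajb9 in them are not independent. Groups lay wholly apart on 5 of 19 members, against 15.1% of all probe sets, with Syvn1 and Dnajb9 higher in Z off and both Vcp probe sets and the brightest Derl1 probe set lower.

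Between M on and M off the members gave no call either, as no probe set did (0 of 22626, 0%). An unadjusted p under 0.05 was reached by 1 of 19 members, a Sel1l probe set, against 5.18% of all probe sets. Syvn1 differed by -0.22 (SE 0.18, 95% interval -0.63 to 0.18) and Dnajb9 by -0.29 (SE 0.22, 95% interval -0.78 to 0.19). Again 14 of 19 read lower with the transgene on, against 51.1% of all probe sets, with a median of -0.16 against -0.01. Groups lay apart on 4 of 19 members, all lower in M on, against 10.5% of all probe sets in either direction. The marker sums of some other cell types were lower in M on as well. The summed signal of 8 of 8 stellate genes was 1858 to 1943 in M off and 1146 to 1712 in M on, and that of 6 of 6 endothelial genes was 686 to 736 and 585 to 635. For 4 of 4 skeletal muscle genes it was 73.9 to 564.5 and 35.3 to 45.2. Within the stellate list, Des (21.0 to 41.0), Lrat (9.2 to 13.5) and Hgf (15.4 to 20.2) averaged higher in M on. The median sum was higher in M on for neutrophil (66.4 to 91), lymphocyte (94.3 to 104.2) and cholangiocyte genes (73.4 to 84.7), with overlapping ranges. The part of these markers in the members' values was not tested. Whether the on minus off difference itself differed between Z and M mice was tested by the interaction, in which 0 of 19 members and 0 of 22626 probe sets (0%) were called and 1 of 19 had an unadjusted p under 0.05, against 5.18%. That member was Syvn1, with an interaction of -0.67 on the log2 scale (SE 0.26, 95% interval -1.25 to -0.10, adjusted p = 0.933), while Dnajb9 gave -0.39 (SE 0.31, adjusted p = 0.933). Without Z on replicate 3 the interactions were -0.80 for Syvn1 (adjusted p = 0.820) and -0.59 for Dnajb9 (adjusted p = 0.880).

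Averaged over M and Z mice, on minus off gave no member call either, against 0.00884% of all probe sets called. Here 16 of 19 member probe sets read lower and 3 higher, against 52.6% of all probe sets lower, with a median of -0.09 against -0.02 for all probe sets. The 19 come from 9 genes on the same arrays, and this comparison averages those of the Z and the M mice, so the counts are not independent. Some of the lower values were near 0, such as -0.01 for the brightest Derl1 and -0.02 for the brightest Derl2 probe set. An unadjusted p under 0.05 was reached by 4 of 19 against 5.84%, namely Syvn1 (-0.56, SE 0.13), Dnajb9 (-0.49, SE 0.15) and a pair of Sel1l probe sets (-0.34, SE 0.14, and -0.45, SE 0.16). No limma adjusted p in this comparison was below 0.406 for a member. Without Z on replicate 3, Syvn1 gave -0.62 (adjusted p = 0.274) and Dnajb9 -0.59 (adjusted p = 0.330). The sum of the stellate markers lay lower in the same direction. For 8 of 8 listed genes it was 1032 to 1712 on the on arrays and 1716 to 1982 on the off arrays, without overlap. Most of that sum came from Dcn, Col3a1 and Reln, and the defining gene Lrat averaged only 9.2 to 13.5 in the 4 groups. Their part in the members' difference was not tested.

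**Figure D3:**
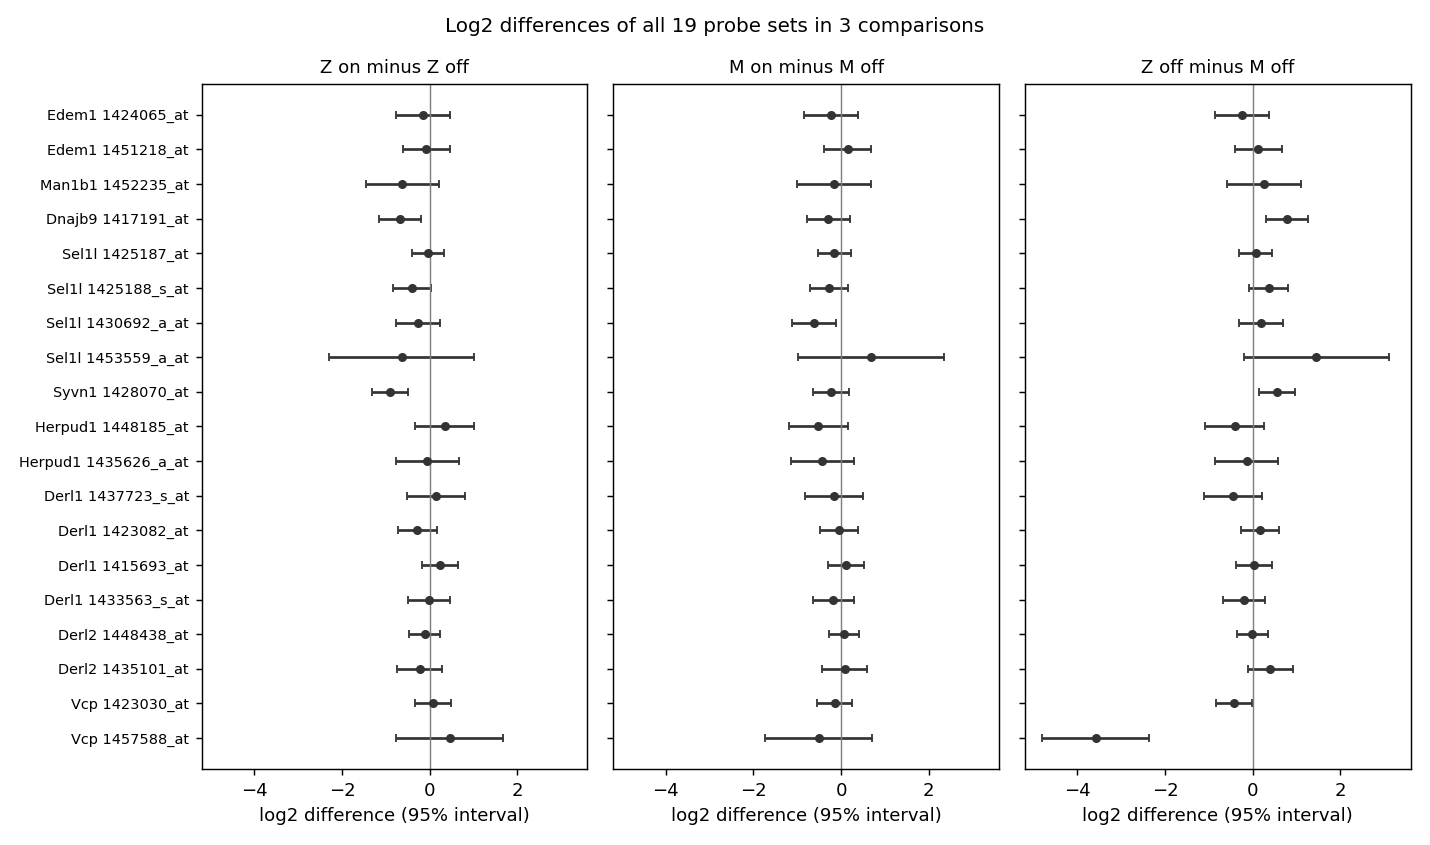
Log2 differences with 95% intervals from limma for all 19 probe sets in 3 comparisons (left to right: the Z mice on minus off, the M mice on minus off, and the off mice Z minus M); the vertical line marks no difference. Syvn1 and Dnajb9 lie below 0 in the first panel and above 0 in the third, where the dim Vcp probe set lies at -3.59.

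Edem1 and Man1b1 belong to the mannosidase family whose trimming marks glycoproteins for disposal. The brightest Edem1 probe set read 563.3, 532.0 and 658.4 in M off, 420.4, 486.9 and 598.1 in M on, 354.2, 641.5 and 511.1 in Z off and 335.2, 569.3 and 450.4 in Z on. The groups overlapped throughout Z on against Z off and the log2 difference there was -0.15 (SE 0.28, 95% interval -0.76 to 0.47). The other Edem1 probe set differed by -0.07 (SE 0.24). Man1b1 was dim, with a range of 22.9 to 94.9 over the 12 arrays, and its extremes were Z off replicate 1 and Z on replicate 3. Its difference of -0.62 between Z on and Z off had a 95% interval from -1.46 to 0.22, which holds 0. It rests on single arrays: without Z on replicate 3 it was -0.20 (adjusted p = 0.943 in limma), without Z off replicate 1 it was -0.33, and over 20 settings it ranged from -0.89 to -0.20.

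Sel1l, the adaptor that holds Syvn1 in place, was measured by 4 probe sets that did not all give the same size or direction of difference. On the brightest of them the groups overlapped, with means of 259 ± 28.6 in Z off, 251 ± 22.8 in Z on, 246.5 ± 16.02 in M off and 222 ± 17.9 in M on. The second brightest gave 196.5, 240.0 and 234.1 in Z off against 147.2, 177.1 and 184.2 in Z on, without overlap (log2 difference -0.40, SE 0.20, adjusted p = 0.8 in limma). On the third, the M on arrays were the lowest, at 92.7, 80.4 and 81.8 against 129.0, 144.2 and 119.7 in M off and 98.3, 140.8 and 137.6 in Z on. Its log2 difference was -0.62 (SE 0.22, adjusted p = 0.889) between M on and M off and 0.55 (SE 0.22, adjusted p = 0.701) between Z on and M on. The dimmest Sel1l probe set ranged from 5.1 to 73.1 and its differences had standard errors of 0.74, and its intervals were the widest among the Sel1l probe sets. Between M on and M off it differed by 0.68, against -0.15, -0.28 and -0.62 on the other probe sets in order of brightness.

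Herpud1 encodes HERP, a stress-inducible membrane protein that helps assemble the Syvn1 complex. Its brightest probe set read 1796.3, 2551.8 and 2040.0 in M off and 1405.4, 1596.7 and 1415.3 in M on. The Z off arrays read 1148.2, 2186.7 and 1570.9, and the Z on arrays 2972.3, 1638.1 and 1673.7. M on lay wholly below M off, while the Z groups overlapped and were widely spread. The log2 difference was -0.52 (SE 0.30, adjusted p = 1.00 in limma) between M on and M off and 0.35 (SE 0.30, adjusted p = 0.891) between Z on and Z off. The interaction was 0.87 (95% interval -0.08 to 1.82). The Z difference rests on single arrays, since it was 0.068 without Z on replicate 1 and 0.12 without Z off replicate 1, and 0.58 without Z off replicate 2. On the other Herpud1 probe set the interaction was 0.38 (SE 0.46), and all comparisons between 2 groups overlapped. Its difference between Z on and Z off was -0.05 (SE 0.32), and 0.18 without Z on replicate 3.

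Derl1 and Derl2 encode derlins, multi-spanning membrane proteins of the channel through which substrates leave the ER. The 4 Derl1 probe sets gave log2 differences of 0.14, -0.28, 0.23 and -0.01 between Z on and Z off, in order of brightness, with standard errors of 0.18 to 0.30. With 1 array left out, the difference on the brightest ranged from -0.11 to 0.34. On the brightest, Z off (445.4, 321.1 and 541.7) lay wholly below M off (583.6, 559.0 and 595.7), and no other Derl1 probe set parted these groups. The brightest Derl2 probe set ranged from 976.7 to 1261.9 over the 12 arrays, and the 95% intervals of the differences were -0.46 to 0.23 for Z on minus Z off and -0.28 to 0.41 for M on minus M off. The dimmer Derl2 probe set ranged from 178.7 to 327.1 and differed by -0.23 (SE 0.23) between Z on and Z off.

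Vcp, the ATPase also called p97, was the member that parted Z from M mice, and only on the dimmer of its probe sets. That probe set read 69.9, 45.7 and 50.7 in M off and 41.8, 41.1 and 32.5 in M on, against 1.6, 6.5 and 9.0 in Z off and 4.8, 6.3 and 8.0 in Z on. All 6 Z arrays thus lay below all 6 M arrays, a pattern shared by 123 of 22626 probe sets (0.544%). Averaged over the on and off states it was lower in Z mice by a log2 difference of -3.10 (SE 0.39, adjusted p = 0.0223 in limma), the only member called in that comparison, where 20 of 22626 (0.0884%) were called. Since the Z signals were among the dimmest of the array, the size depends on the scale, and with 16 units added to every signal it was -1.50. The call was lost with a replicate block (adjusted p = 0.0818) and in 9 of 12 omissions of 1 array (adjusted p = 0.0607 to 0.0773), with differences from -3.19 to -3.01 in those. Within each state it was -3.59 in off mice (adjusted p = 0.0704) and -2.62 in on mice (adjusted p = 0.293); in on mice the groups lay apart on 4 of 19 members against 12.1% of all probe sets, none of the 19 was called against 0.00884%, and 2 of 19 had an unadjusted p under 0.05 against 6.85%. Averaged over states, 4 of 19 had an unadjusted p under 0.05 against 9.09% of all probe sets.

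The bright Vcp probe set read 2010.2, 2027.3 and 1771.6 in M off, 1836.4, 1615.7 and 1806.8 in M on, 1387.7, 1462.6 and 1457.4 in Z off and 1209.6, 1759.9 and 1628.0 in Z on. It too was lower in Z mice, by a log2 difference of -0.32 (SE 0.13, adjusted p = 0.498 in limma), and it did not pass. The sources used here do not give which Vcp transcripts the dim probe set detects. Between on and off mice neither Vcp probe set passed, with differences of 0.08 (SE 0.18) and 0.46 (SE 0.55) in Z mice and -0.14 (SE 0.18) and -0.51 (SE 0.54) in M mice.

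**Figure D4:**
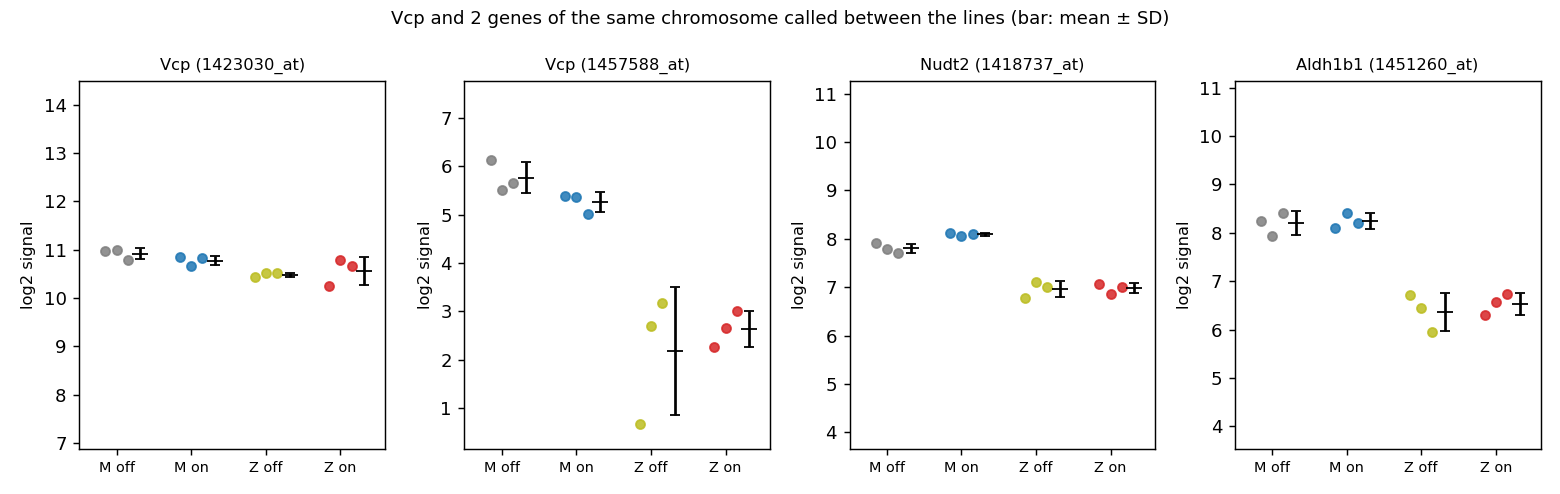
Log2 signal of both Vcp probe sets and of Nudt2 and Aldh1b1, by group; points are arrays, the bar is the mean ± SD (n = 3), and all panels span the same number of log2 units. The dim Vcp probe set, Nudt2 and Aldh1b1 are lower on all 6 Z arrays than on all 6 M arrays, and the bright Vcp probe set is closer between them.

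No pair of members passed a test of variation within the groups. With group means removed, the brightest probe sets of Syvn1 and Dnajb9 had the highest Pearson correlation of the 36 pairs (r = 0.68, rho = 0.63 over 12 arrays; exact permutation within groups, two-sided p = 0.0818 and 0.0995, adjusted p = 0.996 and 1). Without the 2 arrays farthest from the median of Syvn1, r was 0.61. The lowest was that of Derl1 and Derl2 (r = -0.67, rho = -0.56, exact permutation p = 0.0123 and 0.0787, adjusted p = 0.444 and 1), whose r without 2 arrays was -0.58. Of the 36 pairs, 20 were above 0 and none had an adjusted p under 0.05 over the 36.

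Other genes of the pathway were read from a list of 57 symbols, of which 40 had a probe set, 71 in all. Between Z on and Z off, 0 of 71 were called by limma, against 0.0133% of all probe sets. There 25 read higher and 46 lower, where 53% of all probe sets read lower. Against 6.29% of all probe sets, 2 of 71 (2.82%) had an unadjusted p under 0.05. These were Sgta, a cytosolic chaperone of tail-anchored proteins (236 ± 30.7 in Z on, 324 ± 20.7 in Z off), and Rnf185, a ubiquitin ligase of the ER membrane (112 ± 2.21 and 157 ± 15.04). Between M on and M off, 31 read higher and 40 lower, where 51.1% of all probe sets read lower, and none was called, as over all probe sets. Against 5.18% of all probe sets, 4 of 71 (5.63%) had an unadjusted p under 0.05. Of the 4, 2 read higher in M on and 2 lower. The higher were Selenok, a selenoprotein that binds Vcp and derlins (834 ± 49.5 in M on, 613 ± 24.9 in M off, adjusted p = 0.889 in limma), and a very dim Ubqln2 probe set (18.4 ± 5.91 and 4.73 ± 2.47). Among the lower was a Faf1 probe set (39.7 ± 7.6 in M on, 87.1 ± 34.5 in M off, adjusted p = 0.89). The ubiquitin-conjugating enzyme Ube2g2 had the smallest p of the list between Z and M mice: averaged over states its probe sets differed by 1.39 (SE 0.30, adjusted p = 0.195) and 0.51 (SE 0.14, adjusted p = 0.311), both higher in Z. The 1.39 came from a dim probe set, with means of 18.1 in M off, 12.5 in M on, 45.7 in Z off and 31.1 in Z on. In that comparison 10 of 71 (14.1%) had an unadjusted p under 0.05, 7 higher in Z and 3 lower, against 9.09% of all probe sets. In Z off against M off, 38 read higher and 33 lower, and 6 of 71 (8.45%) had an unadjusted p under 0.05, against 7.73% of all probe sets. Of the 6, 5 read higher in Z off and 1 lower. Edem2, a relative of Edem1, read 421 ± 23.1 in Z off and 290 ± 19.9 in M off (adjusted p = 0.565 in limma). The lower was a dim Herpud2 probe set, at 32.7 ± 3.46 in Z off and 51.5 ± 8.44 in M off (adjusted p = 0.464).

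Regulators and chaperones of the unfolded protein response did not pass in these comparisons (0 of 27 probe sets of 11 genes called by limma). Over all probe sets, 0.0133% were called in Z on against Z off and 0.0707% in Z off against M off. In Z on against Z off, 12 read higher and 15 lower, with a median of -0.03, as over all probe sets. Creld2, an ER stress-induced protein, averaged 596 ± 174 in Z off against 264 ± 40.7 in Z on (log2 difference -1.15, SE 0.30, adjusted p = 0.616). Atf6, the ER membrane sensor and transcription factor, lay the other way, at 161 ± 18.2 in Z off against 224 ± 10.1 in Z on (0.49, SE 0.17, adjusted p = 0.706). Xbp1, a transcription factor of the response, had 4 probe sets with differences from -0.05 to 0.34, and Hspa5, which encodes BiP, gave -0.26 and -0.37. In Z off against M off, 21 of the 27 read higher and 6 lower, with a median of 0.33 against 0.03 for all probe sets. An unadjusted p under 0.05 was reached by 5 of 27 (18.5%), 4 higher and 1 lower, against 7.73% of all probe sets. The 27 come from 11 genes, so these counts repeat genes, and all Dnajc3 probe sets were among the 21 that read higher. Some of these 21 were very dim, such as an Ern1 probe set (mean 2.17 in M off, 7.93 in Z off) and an Eif2ak3 probe set (0.97 and 2.37).

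The mean of the 9 genes' centred log2 signals was highest on M off replicate 2 (0.18) and lowest on M on replicate 1 (-0.24), and all 6 on arrays lay below all 6 off arrays. No single member probe set had that pattern (0 of 19, against 0.15% of all probe sets), while the summed stellate markers had it. Of 7025 other genes above the median level, those most like this mean over the 12 arrays were Mprip (Pearson r = 0.90, Spearman rho = 0.86), Ugt2b37 (r = 0.89, rho = 0.85), Plk2 (r = 0.88, rho = 0.88), Slco2a1 (r = 0.87, rho = 0.88) and Fbxo8 (r = 0.87, rho = 0.84). They were chosen for that likeness, so these values are descriptions. Without the 2 arrays farthest from the median of the mean, r ranged from 0.75 to 0.85.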

How the data were processed

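Liver RNA of 12 mice was hybridised to 12 arrays of 22690 probe sets, and 64 control probe sets were left out. The deposited values are linear signal intensities per probe set. RMA is named in the submitters' processing notes, but the deposited signal values are linear with the same trimmed mean (150.1) on every array, so which algorithm made them is not settled. Depth has no counterpart on arrays: the number of arrays limits precision. Groups came from the sample titles. Signals were floored at 0.1 (1 value was 0), taken to log2 and fitted with limma 3.58.1 in R 4.3.3 (lmFit and eBayes, 4 group means, all 12 arrays), with Benjamini-Hochberg adjustment over 22626 probe sets and a threshold of 0.05. Files were not normalised further. Genes come from the platform annotation, and all 9 member symbols matched RefSeq. The members and gene lists were chosen with earlier results of these data known. Other degradation genes were named from the 3 probe sets of smallest p in a comparison; the unfolded protein response genes named were picked after their values were seen. Simulated data for Z on minus Z off (22626 probe sets) recovered 9% of 100 changes of 1 log2 unit and 90% of 100 changes of 2, with 5 false calls. The changes were placed only in probe sets above the median level, with independent normal noise. Members below that level were thus not covered. Alternatives were quantile normalisation, median centring, 16 added, trended robust variances, probe sets above the median level, the contrast's own groups, a replicate block, gene means and leaving out each array.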

Additional observations from a re-analysis of the deposited data

How the results depend on the processing

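Of 2519 member values recomputed under alternatives, 2394 kept their direction and side of the threshold, 10 moved, 10 lost and 6 gained the threshold, and 99 turned their sign. The 99 lay in 46 of 133 differences, none of the values passed (0 of 99 with an adjusted p under 0.05), and 84 came from leaving out 1 array. Counts of probe sets called are given in a fixed order: on minus off in Z mice, on minus off in M mice, Z minus M in on mice, Z minus M in off mice, the interaction, on minus off averaged, and Z minus M averaged. The reported counts were 3, 0, 2, 16, 0, 2 and 20. Quantile normalisation gave 2, 2, 9, 17, 0, 2 and 17, and median centring 1, 5, 3, 14, 1, 2 and 14. Adding 16 gave 1, 3, 10, 23, 1, 4 and 41, and trended robust variances 8, 8, 22, 51, 2, 17 and 110. Probe sets above the median level gave 1, 2, 20, 33, 1, 5 and 87, and gene means 1, 3, 1, 11, 3, 1 and 13. The contrast's own groups gave 0 in each of the first 4. Leaving out 1 array gave 1 to 5, 0 to 2, 0 to 5, 1 to 11, 0 to 2, 0 to 5 and 7 to 18. The causes were not tested.

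Of the members, 1 was called between Z and M mice and 0 elsewhere. With 16 added, 1 was called in Z on minus M on and 1 in Z off minus M off, and with trended variances 1 in Z off minus M off. Above the median level the count between Z and M mice was 0, since the dim Vcp probe set is then not tested. Leaving out 1 array gave 0 to 1 in Z on minus M on, Z off minus M off and Z minus M. The Vcp difference ranged from -3.35 to -1.50 over 18 settings, with adjusted p from 0.000351 to 0.0818.

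A replicate block gave 1, 0, 0, 6, 0, 1 and 12 calls and 0 members between Z and M mice. Arrays of the same number in different groups correlated at -0.083 to 0.16 in 18 pairs, and 6 of 12 arrays correlated best with their own number, so the numbers were not taken to pair the mice. With 3 arrays a group, changes of 1 log2 unit in probe sets above the median level were mostly missed on simulated data.

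A gene name with a digit after it gives the place of the probe set in brightness among those of its gene. With 1 array left out, on minus off in Z mice crossed 0 for Derl1 4 (-0.19 to 0.19), Derl1 1 (-0.11 to 0.34), Edem1 1 (-0.38 to 0.054), Edem1 2 (-0.18 to 0.11), Herpud1 2 (-0.27 to 0.24), Sel1l 1 (-0.14 to 0.032), Vcp 1 (-0.033 to 0.24) and Vcp 2 (-0.30 to 0.95). On minus off in M mice crossed 0 for Derl1 3 (-0.025 to 0.21), Derl1 1 (-0.28 to 0.057), Derl2 2 (-0.070 to 0.21), Derl2 1 (-0.010 to 0.11), Edem1 2 (-0.085 to 0.29) and Sel1l 4 (-0.23 to 1.28). Z minus M in on mice crossed 0 for Derl1 2 (-0.23 to 0.091), Derl1 4 (-0.12 to 0.014), Derl1 1 (-0.39 to 0.065), Derl2 2 (-0.044 to 0.23), Edem1 1 (-0.35 to 0.028), Edem1 2 (-0.20 to 0.086), Man1b1 (-0.48 to 0.22) and Sel1l 4 (-0.28 to 0.54). Z minus M in off mice crossed 0 for Derl1 3 (-0.039 to 0.069), Derl2 1 (-0.080 to 0.055), Edem1 2 (-0.10 to 0.27), Herpud1 2 (-0.42 to 0.083) and Man1b1 (-0.036 to 0.41). The interaction crossed 0 for Derl1 4 (-0.015 to 0.37), Edem1 1 (-0.15 to 0.28), Edem1 2 (-0.36 to 0.011) and Sel1l 2 (-0.25 to 0.002). On minus off averaged crossed 0 for Derl1 4 (-0.18 to 0.008), Derl1 1 (-0.14 to 0.098), Edem1 2 (-0.079 to 0.13), Herpud1 1 (-0.23 to 0.032), Sel1l 4 (-0.43 to 0.32), Vcp 1 (-0.088 to 0.047) and Vcp 2 (-0.40 to 0.22). Z minus M averaged crossed 0 for Derl1 2 (-0.029 to 0.13), Edem1 2 (-0.098 to 0.11), Herpud1 2 (-0.090 to 0.17), Herpud1 1 (-0.12 to 0.13) and Man1b1 (-0.12 to 0.24). Adding 16 turned the sign for Sel1l 4 in on minus off averaged (0.024 to -0.093). Gene means turned the sign for Derl2 1 in Z minus M averaged (-0.094 to 0.075), Derl2 1 in Z minus M in off mice (-0.005 to 0.20), Edem1 1 in the interaction (0.085 to -0.070) and Sel1l 1 in the interaction (0.11 to -0.24). Median centring turned the sign for Edem1 2 in Z minus M averaged (0.020 to -0.017), Herpud1 1 in Z minus M averaged (0.019 to -0.018), Man1b1 in Z minus M averaged (0.024 to -0.013), Derl1 3 in Z minus M in off mice (0.022 to -0.036), Derl1 4 in on minus off in Z mice (-0.008 to 0.038), Sel1l 1 in on minus off in Z mice (-0.042 to 0.004), Derl1 1 in on minus off averaged (-0.012 to 0.012) and Derl2 1 in on minus off averaged (-0.024 to 0.000). Quantile normalisation turned the sign for Derl1 4 in on minus off in Z mice (-0.008 to 0.047) and Vcp 2 in on minus off averaged (-0.028 to 0.024).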

Other observations

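Vcp was not the only gene of its chromosome among the probe sets that parted Z from M mice. That chromosome was looked at because Vcp was called, so the choice itself put Vcp in the count. The chromosome holds 5.96% of all located probe sets, but for this reason the count cannot be set against that share. Whether calls gathered on any chromosome was not tested. Of the 20 probe sets called between Z and M mice averaged over states, 17 had a located gene and 3 lay on the chromosome of Vcp. These were Vcp, Nudt2, an enzyme that splits dinucleotide polyphosphates, and Aldh1b1, a mitochondrial aldehyde dehydrogenase, the latter pair singled out after their values were seen. Nudt2 read 224 ± 15.2 in M off, 273 ± 6.16 in M on, 125 ± 14.0 in Z off and 126 ± 8.72 in Z on. Aldh1b1 read 296.5 ± 48.9, 303 ± 35.4, 84.6 ± 22.0 and 93.4 ± 14.2 in the same order (SD, n = 3). Both were lower on all 6 Z arrays than on all 6 M arrays.

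Among the measured neighbours of Vcp, the galactose enzyme Galt averaged 449.5 in M and 327.5 in Z mice (log2 difference -0.46, SE 0.11, adjusted p = 0.245 in limma). Pigo, an enzyme of glycolipid anchor synthesis, read the other way on a probe set with means of 84.3 and 140.0 (0.76, SE 0.18, adjusted p = 0.249). Its other probe sets gave 0.81 (SE 0.27) and 0.06 (SE 0.14). Ccl27a was lower in Z mice (-0.54, SE 0.21), Stoml2 differed by -0.13 (SE 0.11), and the probe sets of Dnajb5 and of Fancg went both ways. None of these neighbours passed the test, and the cause of these differences was not tested.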
